A study of Mus musculus with 18 samples.

Results

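The genes described here are 10 genes of the MHC class I presentation pathway, namely Psmb8, Psmb9, Psmb10, Tap1, Tap2, Erap1, Tapbp, B2m, H2-T23 and Nlrc5, named as a list and taken wherever a probe set carried that gene symbol alone. Of the 10, 9 were measured among 19938 genes of the arrays. For H2-T23 the 1 probe set that carried the symbol was shared with another gene, so it has no value here. No filter on low values was applied, so all 9 measured genes entered every test.

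Samples were end-stage splenic tumours of mice carrying Eμ-Myc, a transgene that places Myc under the immunoglobulin heavy chain enhancer in B lineage cells, so that B cell lymphomas arise. In 9 mice Prdm11, a gene of the PR domain family, was knocked out (KO tumours), and 9 mice were Prdm11 wild type (WT tumours). All 18 carried Eμ-Myc on a C57BL/6 background and were untreated, and no mouse gave more than 1 tumour. The sources used here give neither ages nor the part of Prdm11 that was deleted. Whole tumours were homogenised, so the RNA came from lymphoma cells together with any T cells, macrophages and red cell precursors of the spleen, and fewer cells of a type cannot be told apart from less RNA per cell.

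MHC class I molecules carry short peptides from inside the cell to its surface, where CD8 T cells read them through the T cell receptor. Peptides are cut by the proteasome, pumped into the endoplasmic reticulum by the TAP transporter, trimmed there, and loaded onto a heavy chain paired with beta-2 microglobulin. Interferon gamma, made largely by T cells and NK cells, raises many genes of the pathway, including the catalytic subunits that turn the proteasome into the immunoproteasome.

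Of the measured genes, Psmb8, Psmb9, Tap1, Tap2 and Tapbp lie on chromosome 17, in or beside the mouse MHC, with H2-T23 on the same chromosome. Psmb9, Tap1, Psmb8 and Tap2 follow each other there in that order, and Psmb9 is read in the opposite direction to Tap1. B2m lies on chromosome 2, Psmb10 and Nlrc5 on chromosome 8 and Erap1 on chromosome 13. The RefSeq table of sequences before gene starts (GRCm38.p6) held 8 of the 10 genes, and 3 stretches are printed. They were chosen with the values of their genes, described further on, known. A link between a motif and those values was not tested. The first is the 250 bases before B2m, at chr2:122147437-122147686 on the plus strand, with the match to an interferon-stimulated response element core (GAAA, any 2 bases, then GAAA, on either strand) in capitals. The second is the 225 bases between the starts of Psmb9 and Tap1, at chr17:34187331-34187555 on the plus strand, which both genes share. The third is the 120 bases before Psmb8, at chr17:34198075-34198194 on the plus strand, with the match to a gamma-activated site (TTCNNNGAA) in capitals.
B2m: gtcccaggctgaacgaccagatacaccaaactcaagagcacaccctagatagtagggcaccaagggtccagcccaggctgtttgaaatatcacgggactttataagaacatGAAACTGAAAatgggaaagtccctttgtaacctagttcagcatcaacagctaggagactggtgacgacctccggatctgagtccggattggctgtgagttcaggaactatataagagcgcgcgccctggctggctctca
between Psmb9 and Tap1: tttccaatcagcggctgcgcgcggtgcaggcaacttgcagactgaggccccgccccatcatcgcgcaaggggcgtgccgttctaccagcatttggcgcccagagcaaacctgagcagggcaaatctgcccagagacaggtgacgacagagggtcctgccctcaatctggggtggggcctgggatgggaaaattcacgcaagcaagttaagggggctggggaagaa
Psmb8: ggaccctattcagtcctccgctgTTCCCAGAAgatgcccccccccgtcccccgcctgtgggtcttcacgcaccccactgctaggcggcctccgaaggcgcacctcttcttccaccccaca
In the 250-base windows of the table, the response element core was found before B2m and H2-T23, and 2.98% of 32851 such mouse windows hold it. The gamma-activated site was found before Psmb8 only among the 8 genes, and 7.02% of windows hold it. The stretch between Psmb9 and Tap1 and the windows before Psmb10 and Tapbp held neither. The table's window for Erap1, which lies inside the gene as the gene table places it, held neither. A CCAAT box, held by 33.8% of windows, was found before B2m, H2-T23, Tap1, Psmb9 and Tapbp. Tap1 and Psmb9 have the same 1 box, at bases 4 to 8 of the stretch that they share. The NF-kB consensus, held by 7.25%, was found before B2m only. The motifs were searched on both strands, and the matches before B2m did not overlap. A match of this length is a run of letters and not a measured binding site.

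Levels are log2 values of the RMA intensities that the authors deposited, and every difference is KO minus WT on the log2 scale. The array medians lay between 5.14 and 5.38 on that scale, and the median gene averaged 5.39. The array of WT tumour 3 stood apart: its correlations with the others had a median of 0.924, and those of the other 17 arrays had medians of 0.957 to 0.975, with KO tumour 4 the lowest of them. Prdm11 itself ran from 4.87 to 5.49 in KO tumours and from 4.84 to 5.66 in WT tumours (difference -0.12, two-sided exact permutation p = 0.311), and where its 1 probe set lies relative to the deletion is not given, so it does not check the genotype. Of 11 measured pan-B genes, 8 were above the median gene in every tumour. The same held for 9 of 10 erythroid, 9 of 14 macrophage and 4 of 17 T cell genes. These counts do not measure the share of any cell type. With 9 arrays per genotype, their number limits the precision of every value.

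No class I gene passed the test between KO and WT tumours. After limma with Benjamini-Hochberg adjustment over all genes, 0 of 9 passed an adjusted p of 0.05, and 0 of 9 passed it without adjustment. The background was 1 gene of 19938 with adjustment (0.00502%) and 1336 genes without (6.7%). The differences lay between -0.11 for B2m and 0.18 for Psmb9, with 5 of 9 above 0 and a median of 0.01, against a median of -0.03 over all genes. In each of the 9 genes the levels of the KO and WT tumours overlapped.

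Psmb8, Psmb9 and Psmb10 encode the inducible catalytic subunits of the immunoproteasome. Psmb8 had a lowest, median and highest level of 8.67, 9.29 and 9.65 in KO tumours, against 8.83, 9.26 and 10.14 in WT tumours. KO tumour 4 was the lowest of all 18 and WT tumour 8 the highest, with the other tumours of both genotypes between them. The means were 9.33 ± 0.31 in KO and 9.32 ± 0.41 in WT tumours (SD, n = 9 each), and they differed by 0.01 (SE 0.16, 95% interval -0.32 to 0.35, limma adjusted p = 0.995). Psmb9 had a lowest, median and highest level of 8.16, 9.22 and 9.59 in KO tumours, against 8.07, 8.76 and 9.94 in WT tumours. It was the most variable of the 9 genes, with a 3.64-fold range over the 18 tumours and an SD at percentile 92.4 of all genes. Its KO mean of 9.03 ± 0.50 exceeded its WT mean of 8.84 ± 0.61 by 0.18 (SE 0.24, 95% interval -0.32 to 0.68, limma adjusted p = 0.904), which is within the spread of either genotype. With the interferon-stimulated mean as a covariate the difference was 0.47 (limma adjusted p = 0.702) and with the T cell mean 0.32 (limma adjusted p = 0.775). With 1 tumour left out it lay between 0.09 (without WT tumour 3) and 0.32 (without WT tumour 8). Psmb10 spanned 6.94, 7.24 and 7.45 in KO tumours, against 7.02, 7.26 and 7.68 in WT tumours, with a difference of -0.06 (SE 0.10, limma adjusted p = 0.928). KO tumour 4 had the lowest KO level and WT tumour 8 the highest WT level of all 3 subunits.

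Tap1 and Tap2 encode the subunits of the peptide transporter, and their mean signals lay at percentiles 63.3 and 64.2 of all genes, where a signal depends on the probes as well as on the RNA. Tap1 spanned 5.12, 5.92 and 6.38 in KO tumours, against 5.27, 5.96 and 6.29 in WT tumours, and differed by -0.03 (SE 0.15, 95% interval -0.34 to 0.27, limma adjusted p = 0.981). KO tumour 4 was again the lowest KO tumour and KO tumour 6 the highest. Tap2 spanned 5.59, 5.89 and 6.15 in KO tumours, against 5.82, 5.92 and 5.99 in WT tumours, and differed by -0.01 (SE 0.08, limma adjusted p = 0.989). Every WT tumour lay inside the range of the KO tumours. Its SD over the 18 tumours lay at percentile 1.0 of all genes, so its probe set varied little.

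Erap1 encodes the aminopeptidase that trims peptides inside the endoplasmic reticulum, and Tapbp encodes tapasin, which bridges the transporter and the class I heavy chain. Erap1 spanned 6.96, 7.21 and 7.34 in KO tumours, against 6.50, 7.17 and 7.53 in WT tumours. The KO tumours sat close together (7.17 ± 0.12, n = 9), whereas WT tumours 4, 1, 5 and 3 lay below every KO tumour, at 6.50, 6.63, 6.65 and 6.92, and the WT spread was wider (7.06 ± 0.40, n = 9). The difference in means was 0.11 (SE 0.14, 95% interval -0.17 to 0.39, limma adjusted p = 0.897), and the difference in spread was not tested. Tapbp spanned 5.58, 6.04 and 6.17 in KO tumours, against 5.41, 6.02 and 6.30 in WT tumours, and its means differed by 0.01 (SE 0.11, limma adjusted p = 0.995). Its mean signal lay at percentile 65.0 of all genes, close to Tap1 and Tap2, so the same limit applies to it. The 2 probe sets that Tapbp shared with other genes were not used.

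B2m encodes beta-2 microglobulin, the light chain that all class I heavy chains need to reach the surface. Its signal was at percentile 99.6 of all genes, so it was among the brightest probe sets of every tumour. It spanned 11.58, 11.96 and 12.39 in KO tumours, against 11.59, 12.14 and 12.49 in WT tumours, with nearly the same lowest level in both genotypes. The means were 11.95 ± 0.29 in KO and 12.06 ± 0.30 in WT tumours (SD, n = 9 each), a difference of -0.11 (SE 0.14, 95% interval -0.40 to 0.17, limma adjusted p = 0.892).

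Nlrc5 encodes the transactivator that works on class I gene promoters, and the array held 19 probe sets for it. By the rule the 1 with the highest mean stands for the gene. It spanned 7.70, 8.20 and 9.04 in KO tumours, against 7.61, 8.24 and 8.73 in WT tumours, a difference of 0.01 (SE 0.17, 95% interval -0.34 to 0.35, limma adjusted p = 0.998). The other 18 probe sets averaged between 3.49 and 6.95, and their KO minus WT differences, together with that of the brightest, ran from -0.16 to 0.18 with 8 positive and 11 negative. Their correlation with the brightest ranged from -0.09 to 0.89 with a median of 0.46, so the probe sets of this gene differed in pattern. How well the brightest stands for Nlrc5 RNA was not tested. KO tumour 4 and WT tumour 3, whose arrays were least like the rest, had the highest Nlrc5 level of their genotype.

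**Figure D1:**
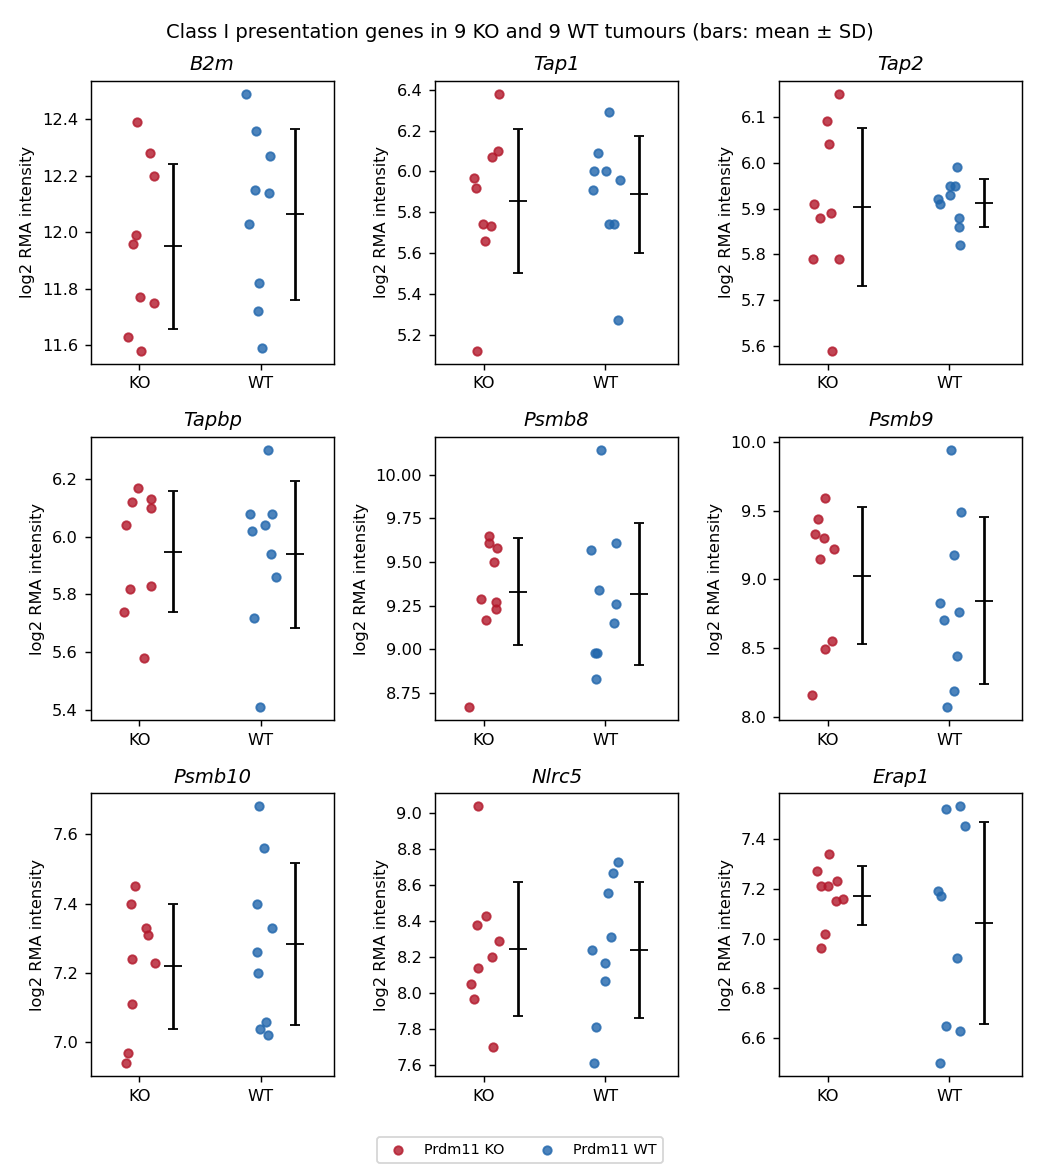
Level of each of the 9 measured class I genes (log2 RMA intensity, vertical axes differ between panels) in 9 Prdm11 KO tumours (red, left) and 9 Prdm11 WT tumours (blue, right), 1 point per tumour, with bars for mean ± SD. The genotypes overlap in every panel, and the clearest visual contrast is the wider spread of Erap1 in WT tumours (SD 0.40) than in KO tumours (SD 0.12).

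The rest of the pathway, 27 genes listed from textbook roles, had 21 measured genes, and 0 of 21 passed the adjusted threshold of limma. Without adjustment 0 were higher and 2 lower in KO tumours, both class I heavy chain genes outside the classical loci. H2-T24 differed by -0.47 (SE 0.16) and H2-Q4 by -0.44 (SE 0.16), each at a limma adjusted p of 0.699. H2-K1 and H2-D1, the classical heavy chains of this strain, shared their probe sets with other genes and were not analysed here. Of 14 constitutive proteasome subunit genes, 0 passed with or without adjustment, and their median difference was 0.07. Psma6 and Psma4, with the smallest p, differed by 0.21 (SE 0.14) and 0.22 (SE 0.19), at limma adjusted p of 0.810 and 0.856.

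The interferon lists had lower means in KO tumours, without a gene past the adjusted threshold. Of 19 interferon-stimulated genes, 18 had a lower KO mean, with a median difference of -0.26, and 6 passed an unadjusted p of 0.05 in limma while 0 passed after adjustment. Of all genes 59.2% had a lower KO mean, and 3.87% were lower and 2.83% higher at an unadjusted p of 0.05. Ifit1, an antiviral RNA-binding protein gene, differed by -0.87 (SE 0.27), and Rsad2, which encodes viperin, by -0.85 (SE 0.31), at limma adjusted p of 0.667 and 0.699. Of 11 interferon gamma-induced genes, 10 had a lower KO mean (median -0.31, with 2 of 11 past the unadjusted threshold and 0 after adjustment). Iigp1, an immunity-related GTPase gene, differed by -1.16 (SE 0.46) and Cxcl9, a T cell attracting chemokine gene, by -0.89 (SE 0.40), at limma adjusted p of 0.699 and 0.719. In the T cell list 0 of 17 genes passed either threshold (median -0.14), and Cd3g and Cd3d, with the smallest p, differed by -0.77 (SE 0.62) and -0.80 (SE 0.82). In the same tumours 7 of 11 pan-B genes were higher in KO at an unadjusted p of 0.05 and 6 of 10 erythroid genes lower, against those shares of 2.83% and 3.87%, with 0 past the adjusted threshold in either list. Lower KO means were also found for 12 of 14 macrophage genes, 12 of 13 NK and cytotoxic genes and 9 of 10 dendritic cell genes, with 2, 1 and 0 past the unadjusted threshold. The part of cell composition in these values was not tested.

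Among themselves the class I genes formed no single block. Psmb8 and Psmb9 had a Pearson r of 0.88 over the 18 tumours, Psmb9 and Psmb10 of 0.84, and Psmb8 and Psmb10 of 0.75. Psmb9 ranked 4 among 19937 genes in likeness to Psmb10, although the genes lie on chromosomes 17 and 8. Psmb10 ranked 32 in likeness to Psmb9 and 299 in likeness to Psmb8, and Psmb9 ranked 10 in likeness to Psmb8. Within KO tumours the r of Psmb9 and Psmb10 was 0.90, and within WT tumours it was 0.89. Another pair was B2m and Tapbp, at 0.68, with r of 0.54 in KO and 0.83 in WT tumours. Tapbp ranked 66 in likeness to B2m, and B2m ranked 203 in likeness to Tapbp. B2m and the 3 immunoproteasome genes had an r of only 0.03 to 0.14. Tap1 had an r of 0.55 with Tapbp and of 0.43 with Psmb9, the gene that starts at the other end of the 225-base stretch printed near the opening, and Tapbp had an r of 0.07 with Psmb9. The brightest Nlrc5 probe set, which had a median r of 0.46 with the other 18, ran against the immunoproteasome genes, with r of -0.64, -0.62 and -0.61 to Psmb8, Psmb9 and Psmb10, and with Tapbp, at 0.56. These correlations are descriptions over 18 arrays that share their normalization, and they carry no test.

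**Figure D2:**
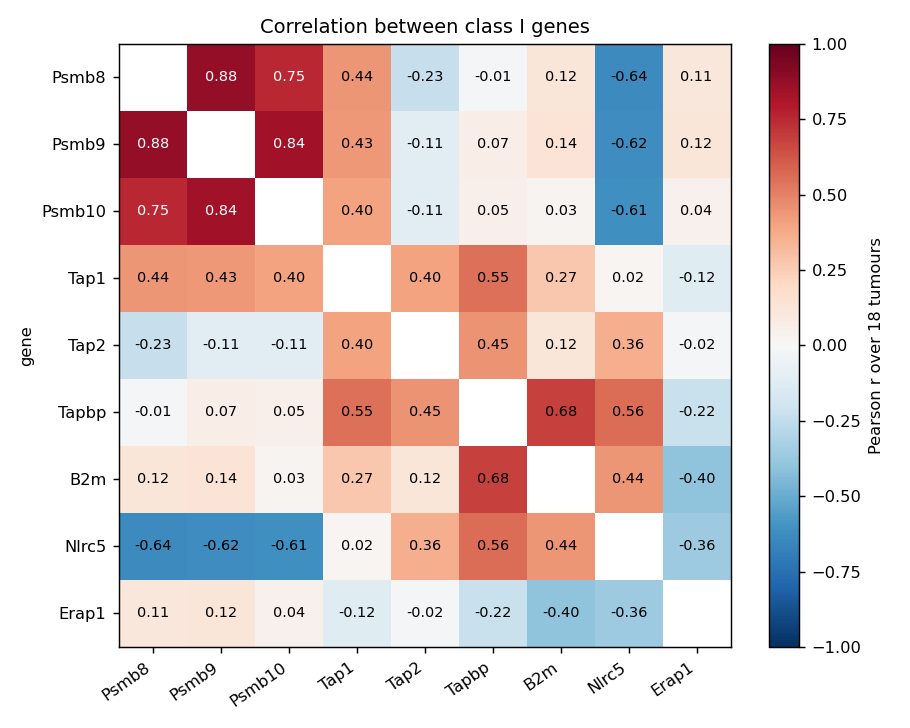
Pearson r between each pair of the 9 class I genes over 18 tumours (color scale from -1 in blue to 1 in red, with the value in each cell and the diagonal left blank). The 3 immunoproteasome genes form a red block at 0.75 to 0.88, and B2m and Tapbp reach 0.68. The brightest Nlrc5 probe set, 1 of 19, is blue against the immunoproteasome genes.

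The relation to interferon genes was asked with the mean level of the 19 interferon-stimulated genes in each tumour, which ran from 5.09 to 6.10 in KO tumours and from 5.48 to 6.51 in WT tumours. Of the 9 genes B2m followed this mean most closely. Its Pearson r was 0.73 (two-sided permutation p = 0.00073) and its Spearman rho 0.74 (permutation p = 0.00077). After adjustment over all genes the p were 0.0836 and 0.104, so the relation did not pass the threshold. Within genotypes r was 0.67 in 9 KO tumours (exact p = 0.0490) and 0.78 in 9 WT tumours (exact p = 0.0138), and over the pooled tumours it was 0.70 without WT tumours 4 and 5, which lay farthest from the median. With 1 tumour left out r lay between 0.68 (without KO tumour 9) and 0.81 (without KO tumour 4). KO tumour 4 had high B2m (12.20) for its low interferon mean (5.36), and without it the adjusted permutation p was 0.0356. In the other 17 cases the adjusted permutation p was 0.0642 to 0.249, so the relation did not pass. Tapbp had an r of 0.55 (rho 0.49, adjusted permutation p = 0.269) and Tap1 of 0.52 (rho 0.60, adjusted permutation p = 0.314). The immunoproteasome genes lay at 0.35 to 0.39, and Tap2 and Nlrc5 at 0.15 and 0.14. In all, 0 of 9 genes passed the adjusted threshold, against a background of 0.336% of genes positive and 0.0752% negative, and 3 of 9 passed without adjustment, all positive, against 6.72% of all genes positive and 5.44% negative. The median r of the 9 was 0.38, against -0.01 over all genes.

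Erap1 was the 1 class I gene with a negative r to the interferon-stimulated mean, at -0.44 (rho -0.22, permutation p = 0.0677, adjusted p = 0.462). That value rested on WT tumours 4 and 5, and without them r was 0.04. Within KO tumours r was 0.72 (two-sided exact p = 0.0294, n = 9), and within WT tumours it was -0.74 (two-sided exact p = 0.0266, n = 9), both without adjustment. The limma slopes on the interferon mean were 0.27 in KO and -0.80 in WT tumours, a difference of 1.07 (SE 0.33, unadjusted p = 0.00408), but the adjusted p over all genes was 1 and 0 genes passed. The slope of B2m was 0.61 in KO and 0.64 in WT tumours, and these slopes differed by -0.03 (SE 0.33, limma adjusted p = 1).

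**Figure D3:**
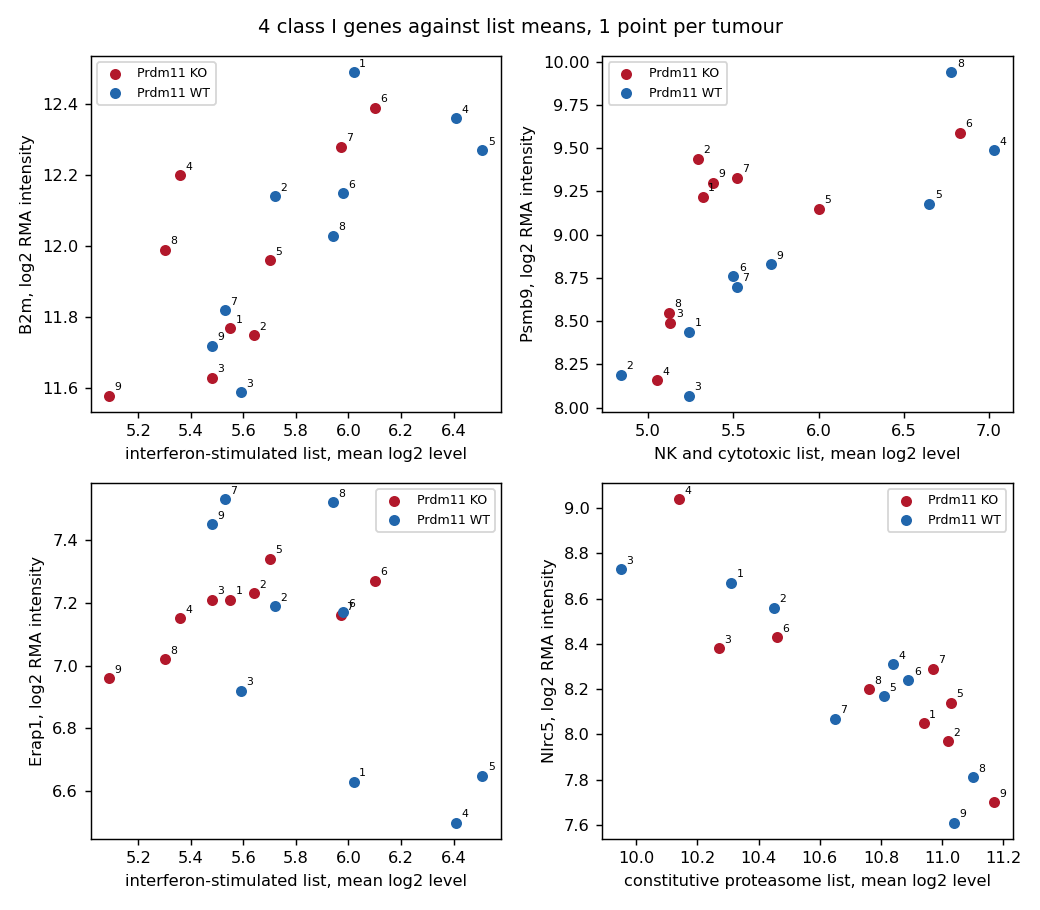
B2m and Erap1 against the interferon-stimulated mean, Psmb9 against the NK and cytotoxic mean, and Nlrc5 against the constitutive proteasome mean (all log2 RMA intensity), 1 numbered point per tumour, KO in red and WT in blue. B2m climbs with the interferon mean in both genotypes, Erap1 is low in WT tumours 1, 4 and 5, and Psmb9 has 4 tumours set apart at the right. The brightest Nlrc5 probe set descends along its whole axis (r = -0.87).

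The mean of the 11 interferon gamma-induced genes ran from 5.05 to 6.51 in KO tumours and from 5.28 to 6.59 in WT tumours. B2m, Psmb8, Psmb9, Psmb10 and Tap1 had r of 0.63, 0.61, 0.60, 0.60 and 0.56 to it. Their rho were 0.63, 0.53, 0.52, 0.47 and 0.51, and their adjusted permutation p ran from 0.124 for B2m to 0.224 for Tap1, so 0 of 9 genes passed. The background was 1.78% of genes positive and 0.266% negative. Without adjustment 5 of 9 passed, all positive, against 7.06% of all genes positive and 5.86% negative. KO tumour 6 and WT tumour 8 lay farthest from the median, and without them the r of B2m was 0.67, while those of Psmb8, Psmb9, Psmb10 and Tap1 were 0.40, 0.38, 0.48 and 0.32. Without KO tumour 6 alone the r of Psmb8 and Psmb9 were 0.60 and 0.55, and without WT tumour 8 alone they were 0.47 and 0.49. The r of Psmb8, Psmb9 and Psmb10 were 0.50, 0.62 and 0.34 within KO tumours and 0.81, 0.85 and 0.79 within WT tumours. The brightest Nlrc5 probe set had an r of -0.08 to this mean and Erap1 of -0.20. The r of Erap1 was -0.62 without KO tumour 6 and WT tumour 8, and it lay between -0.43 (without WT tumour 8) and -0.02 (without WT tumour 4) with 1 tumour left out. Within KO tumours it was 0.53 and within WT tumours -0.34.

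The T cell mean over 17 genes did not vary evenly. KO tumour 6 and WT tumours 4, 5 and 8 lay between 6.73 and 7.19, and the other 14 tumours lay at or below 6.23, so that a gap of 0.50 separated them. Within the 14 lower tumours no class I gene followed the T cell mean past the threshold. Psmb8 had an r of 0.34 there (permutation p = 0.239) and Psmb9 and Psmb10 of 0.28 and 0.08, and 0 genes of the whole array passed. Over all 18 tumours Psmb8 had an r of 0.67 (rho 0.55, permutation p = 0.00149, adjusted p = 0.0484), Psmb9 of 0.67 (rho 0.56, adjusted permutation p = 0.0521) and Psmb10 of 0.57 (rho 0.40, adjusted permutation p = 0.182). These pooled values include the 4 tumours beyond the gap. Within KO tumours the r of Psmb8, Psmb9 and Psmb10 were 0.44, 0.49 and 0.21 (two-sided exact p = 0.201, 0.176 and 0.618). Within WT tumours they were 0.85, 0.89 and 0.80 (two-sided exact p = 0.00329, 0.00143 and 0.0151). These p are without adjustment, and the difference between genotypes was not tested. The 14 lower tumours were cut on the T cell mean itself, and no gene of the array passed there. They therefore cannot show what the pooled values rest on. By Pearson r Psmb8 was the 1 of 9 genes past the adjusted threshold over all 18 tumours. The background was 2.43% positive and 0.702% negative. By rho Psmb8 did not pass (permutation p = 0.0192, adjusted p = 0.304). Without adjustment 4 of 9 passed by r, all positive, against 7.63% of all genes positive and 5.86% negative. When 1 tumour at a time was left out, the r of Psmb8 lay between 0.57 and 0.75. Without both KO tumour 6 and WT tumour 8, the farthest from the median, it was 0.53. Its call was lost in 16 of 18 cases, at an adjusted permutation p of 0.0502 to 0.214, and held without KO tumour 9 or WT tumour 3. B2m, Tap1 and Tapbp had pooled r of 0.45, 0.50 and 0.31, and of -0.02, 0.04 and -0.08 in the 14 lower tumours. Nlrc5 and Erap1 were at -0.09 and -0.08 over all 18.

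NK and cytotoxic genes, a list of 13 related after the data were seen that includes Ifng, Gzmb and Prf1, split the same 4 tumours from the other 14 by a gap of 0.65. Within the 14 tumours Psmb8, Psmb9 and Psmb10 had r of 0.58 (permutation p = 0.0277, adjusted p = 0.374), 0.57 (permutation p = 0.0328, adjusted p = 0.386) and 0.48 (adjusted p = 0.461). Tap2 and the brightest Nlrc5 probe set were negative there, at r of -0.65 (permutation p = 0.0133, adjusted p = 0.360) and -0.56 (permutation p = 0.0395, adjusted p = 0.400), and Tapbp and Erap1 had r of -0.42 and 0.44. The 14 tumours were cut on the NK mean itself, and 0 genes of the array passed the adjusted threshold there. No share of all genes is given for the unadjusted p in the 14. These values therefore cannot show what the pooled values rest on. Over all 18 tumours the 3 immunoproteasome genes passed, at r of 0.73, 0.74 and 0.68 and rho of 0.77, 0.76 and 0.71 (adjusted permutation p = 0.0139, 0.0167 and 0.0430). The other 6 did not, and the background was 3.17% positive and 1.23% negative. Without KO tumour 6 and WT tumour 4, the farthest from the median, the r were 0.76, 0.69 and 0.66. Within KO tumours they were 0.63, 0.63 and 0.39, and within WT tumours 0.83, 0.92 and 0.83. The NK and T cell means had an r of 0.96 to each other and the interferon gamma-induced and T cell means of 0.88, so these lists are not independent of each other. Ifng itself differed by -0.50 between KO and WT tumours (SE 0.18, limma adjusted p = 0.699), and Gzmb by -0.60 (SE 0.33, limma adjusted p = 0.777).

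When the interferon-stimulated and T cell means entered 1 limma fit together, no class I gene passed the adjusted threshold on either slope. B2m had a slope of 0.65 per log2 unit of the interferon mean (SE 0.20, limma adjusted p = 0.286) beside -0.08 on the T cell mean (SE 0.13). Tapbp had 0.41 on the interferon mean (SE 0.20, limma adjusted p = 0.671) and -0.07 on the T cell mean. Psmb9 had 0.77 on the T cell mean (SE 0.24, limma adjusted p = 0.125) beside -0.28 on the interferon mean (SE 0.36), and Psmb8 had 0.50 (SE 0.16, limma adjusted p = 0.148) beside -0.19 (SE 0.24). Erap1 had -0.61 on the interferon mean (SE 0.24, limma adjusted p = 0.514) beside 0.25 on the T cell mean (SE 0.16). The count was 0 of 9 on each, against a background of 0.352% positive and 0.0100% negative for the interferon slope and of 0.920% and 0.668% for the T cell slope. The means themselves had an r of 0.72, and the T cell slope is subject to the same gap between tumours.

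Constitutive proteasome genes were related to the class I genes in a comparison also chosen after the data were seen, because their mean was lowest in WT tumour 3 (9.95) and KO tumour 4 (10.14), which limma also gave the smallest array weights. The background for this list was wide, with 10.9% of genes positive and 14.8% negative past the adjusted threshold. Psmb8 and Psmb9 had r of 0.73 and 0.74 to it (rho 0.78 and 0.71, adjusted permutation p = 0.00442 and 0.00534) and Psmb10 of 0.60 (rho 0.63, adjusted permutation p = 0.0378). The brightest Nlrc5 probe set had an r of -0.87 (rho -0.88, adjusted permutation p = 0.000436, the unadjusted 1e-05 being the smallest that 100000 resamples can give), with -0.87 within KO and -0.87 within WT tumours. Without KO tumour 4 and WT tumour 3 the r were 0.58, 0.61, 0.46 and -0.81. All 19 Nlrc5 probe sets had a negative r to this mean, between -0.87 and -0.03 with a median of -0.42, where the median gene was at -0.21, whereas 16 of 19 had a positive r to the interferon-stimulated mean, with a median of only 0.14. With the constitutive proteasome mean removed from both sides, the r of Psmb8 and Psmb9 to the T cell mean were 0.82 and 0.82 (adjusted permutation p = 0.00604 and 0.00544), and that of B2m to the interferon-stimulated mean was 0.74 (adjusted permutation p = 0.0366). To the interferon gamma-induced mean Psmb8 and Psmb9 then had r of 0.74 and 0.74 (adjusted permutation p = 0.0259 and 0.0220). In this setting, likewise chosen afterwards, 3.54% of genes were positive and 1.67% negative past the threshold for the T cell mean, 1.54% and 0.883% for the interferon-stimulated mean, and 2.73% and 0.908% for the interferon gamma-induced mean. These T cell values include the 4 tumours beyond the gap.

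**Figure D4:**
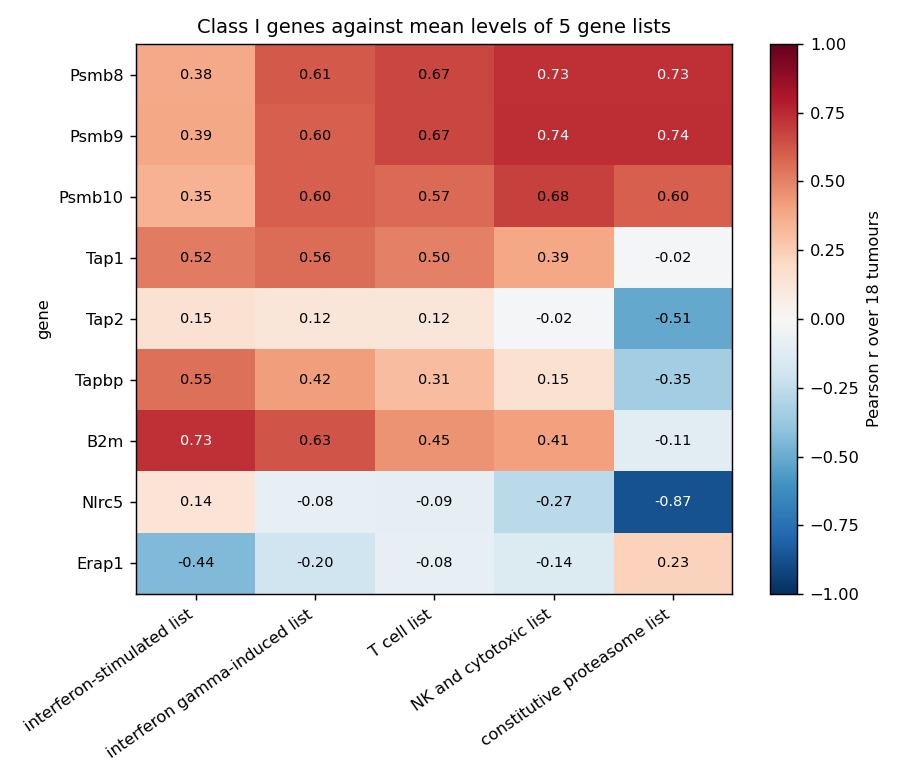
Pearson r over 18 tumours of each class I gene with the mean level of 5 gene lists (color scale from -1 to 1, value in each cell). B2m tops the interferon-stimulated column (0.73), and the immunoproteasome genes top the T cell, NK and proteasome columns (0.57 to 0.74). In the interferon gamma-induced column B2m and the immunoproteasome genes lie close together (0.60 to 0.63). The brightest Nlrc5 probe set is at -0.87 in the proteasome column. The T cell and NK columns include the 4 tumours beyond the gap.

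Of the 21 other pathway genes, some passed the same tests. H2-M3, a nonclassical heavy chain gene, had an r of 0.80 to the T cell mean over 18 tumours (adjusted permutation p = 0.00794) and Tapbpl, a tapasin-related peptide editor gene, of 0.78 (adjusted permutation p = 0.0131), which made 2 of 21. H2-Q4 had an r of 0.71 to the interferon gamma-induced mean (adjusted permutation p = 0.0299), 1 of 21, and 0 of 21 passed for the interferon-stimulated mean. To the latter mean the heavy chain genes H2-Q4, H2-Q10 and H2-T24 had r of 0.75, 0.74 and 0.74 (adjusted permutation p = 0.0567, 0.0665 and 0.0665). B2m had 0.73, and the median of the 21 was 0.29. The T cell values share the gap between the 4 high tumours and the others.

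The genes most like the mean of the 9 class I genes, each scaled to its own SD, were Anxa6 at an r of 0.93, Xkrx at 0.86, and Irf1 and Unc93b1 at 0.85. Irf1 encodes an interferon-induced transcription factor, and Unc93b1 a chaperone of endosomal Toll-like receptors. Ero1b, Fyb and Selplg followed at 0.84, Creld2 at 0.82, and Letm2 and Themis2 at 0.81. Taken singly, B2m was most like Ifitm3 (0.84), an interferon-induced membrane protein gene. Psmb8 was most like Nek7 (0.95), Psmb9 most like Idnk (0.93), and Psmb10 most like Cd300ld (0.88). Psme2, which encodes an interferon-inducible proteasome activator subunit, was the third closest to Psmb9 at 0.90, and was named after its value was seen. Tap1 was most like Selplg (0.84), Tap2 most like Col10a1 (0.78), Tapbp most like Krtap1-3 (0.84) and the brightest Nlrc5 probe set most like Adamts17 (0.95). Col10a1 encodes a cartilage collagen, Krtap1-3 a hair keratin-associated protein and Adamts17 a secreted metalloprotease. Erap1 was most like Slc30a5 (0.85), a zinc transporter gene that also lies on chromosome 13. These genes were picked for having the highest r over 18 tumours among named genes above the median level, so the values carry no test.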

How the data were processed

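Total RNA from 18 tumours, 1 Affymetrix array each, was analysed. The authors deposited 1 linear intensity per probe set, made with RMA per the submitters' processing notes, whose version the sources used here do not give. The intensities ran from 1.63 to 14996 and were transformed to log2 with no pseudocount. Of 35556 probe sets, 21789 had 1 platform gene symbol, 1621 several and 12146 none, and a gene was represented by its single-symbol probe set of highest mean, which gave 19938 genes. No 2 of the 153 pairs of arrays held identical values.

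KO and WT tumours were compared with limma 3.58.1 in R 4.3.3 (lmFit, eBayes, Benjamini-Hochberg over all genes, threshold 0.05). The relation of each gene to a list mean was tested by permutation with 100000 resamples, adjusted over all genes, and by all 362880 orders within a genotype of 9. A list mean never held the gene tested. In all 45 relations of class I genes were computed, 9 for each of 5 lists. The other steps ran in Python 3.11.15 (scipy 1.17.1, numpy 2.4.6, matplotlib 3.10.9, pandas 2.3.3), and the limma and permutation steps were tested on simulated data.

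The members and lists were chosen with earlier results of these data known, and the lists come from textbook markers. Named genes were all class I members, of each other list the genes past the threshold or otherwise the 2 of smallest p, and the genes most like the members. Of the lists, only those the results turn on are named by gene. The replicate numbers were not used as pairs in the main tests, since each tumour came from its own mouse and no label gives a pairing. Same-numbered tumours deviated with r of -0.23 to 0.49, with 4 of 9 over 0.1. Of the 9 KO tumours, 1 was most like the WT tumour of its own number. Batches and scan times were not analysed here, as no label gives them. Alternatives covered normalization, the choice of probe set, dim genes, list medians, covariates, array weights, a replicate block and leaving out each tumour.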

Additional observations from a re-analysis of the deposited data

Results flagged for a closer look

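Of 28 groups of 9 tumours examined, 3 held a tumour whose distance from its nearest neighbour was large against the range of its group, where chance alone marks about 1 group in 20. Psmb8 was 8.67 in KO tumour 4, with the next KO tumour at 9.17, a gap of 0.508 of the KO range against a critical value of 0.493. The interferon gamma-induced mean was 6.51 in KO tumour 6, with the next at 5.67 (0.577 of the range), and the T cell mean was 7.19 in that tumour, with the next at 6.23 (0.568 of the range). KO tumour 6 also held the highest KO level of 5 of the 9 class I genes, namely B2m, Tap1, Tap2, Tapbp and Psmb9.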

How the results depend on the processing

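All 9 class I genes stayed unpassed between KO and WT tumours under each of 29 alternatives, with adjusted p from 0.532 to 1. The count of genes past the threshold between genotypes was 1, and it was 0 with the replicate block (which changed no call of a class I gene), with the interferon mean as a covariate and with the 2 arrays of lowest weight left out, 2 with the constitutive proteasome covariate, and 0 to 1 with a tumour left out. Differences this close to 0 changed sign: B2m to 0.10, Tap1 to 0.14, Tap2 to 0.01 and Erap1 to -0.01 with the interferon covariate; Tap1 to 0.02 and Nlrc5 to -0.01 with the T cell covariate; Tap1 to 0.04, Tapbp to -0.02 and Nlrc5 to -0.04 with array weights; Tap1 to 0.07, Tapbp to -0.04 and Nlrc5 to -0.03 without the 2 arrays of lowest weight; Psmb8 to -0.01 and Nlrc5 to -0.02 with quantile normalization; Tap2 to 0.01 with median centring, Nlrc5 to -0.02 with the mean of its probe sets and Psmb8 to -0.05 with the proteasome covariate. With 1 tumour left out the differences ran from -0.11 to 0.06 for Tap1, -0.04 to 0.03 for Tap2, -0.06 to 0.05 for Tapbp, -0.05 to 0.12 for Psmb8 and -0.09 to 0.07 for Nlrc5.

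The genes related to the interferon-stimulated mean numbered 82, but 32 with the list median, 484 with the proteasome mean removed, 217 without the 2 arrays of lowest weight, and 4 (without WT tumour 4) to 140 with a tumour left out. For the interferon gamma-induced mean they numbered 407, 726 with the proteasome mean removed, and 113 (without KO tumour 6) to 599. For the T cell mean they numbered 624, 1037 with the proteasome mean removed, 0 in the 14 tumours below the gap, and 244 (without KO tumour 6) to 690. For the NK and cytotoxic mean 879 became 0 in those 14. The joint fit called 72 genes on the interferon slope, 1 with a genotype term, 3 with the interferon gamma-induced mean in place and 0 to 140 with a tumour left out, and 316 on the T cell slope, 13 with that mean in place and 108 to 424. The cause of these moves was not tested. The split at the gap, the proteasome mean and the removal of the 2 arrays were chosen after the data were seen.

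Among class I genes B2m passed for the interferon-stimulated mean in 3 of 26 alternatives (adjusted p from 0.0298 to 0.249 over all), and Psmb8 kept its T cell call in 8 of 27 (0.0021 to 1) while Psmb9 gained one in 8 of 27 (0.00544 to 1). Psmb8 and Psmb9 passed for the interferon gamma-induced mean in 3 and 2 of 26. The direction of Nlrc5 changed with the setting. Its r turned to -0.01 for the interferon-stimulated mean with median centring, to 0.28, 0.01, 0.12 and 0.15 for the interferon gamma-induced mean (mean of probe sets, list median, proteasome mean removed, without the 2 arrays) and to 0.20, 0.12 and 0.03 for the T cell mean (the same settings without the list median). Below the gap B2m, Tap2, Tapbp and Erap1 turned to -0.02, -0.51, -0.08 and 0.46 for the T cell mean, and B2m, Tap1, Tapbp and Erap1 to -0.13, -0.19, -0.42 and 0.44 for the NK mean. In the joint fit the interferon slopes of Psmb8, Psmb9 and Psmb10 turned to 0.05, 0.06 and 0.17 with the interferon gamma-induced mean in place, and that of Psmb9 to 0.02 with a genotype term. With 1 tumour left out, r ran from -0.03 to 0.34 (Nlrc5) for the interferon-stimulated mean, -0.12 to 0.24 (Tap2) and -0.20 to 0.08 (Nlrc5) for the interferon gamma-induced mean, and -0.18 to 0.24 (Tap2), -0.19 to 0.05 (Nlrc5) and -0.28 to 0.18 (Erap1) for the T cell mean. Joint slopes then ran from -0.12 to 0.06 (Psmb10, interferon), and -0.19 to 0.04 (B2m), -0.10 to 0.04 (Tap2) and -0.15 to 0.02 (Tapbp) on the T cell mean.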

Other observations

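MHC class II genes, whose products present peptides to CD4 T cells, varied with the T cell mean. Their own mean had an r of 0.83 to the T cell mean over 18 tumours, 7 of its 8 measured genes passed the adjusted permutation threshold for that mean (2.43% of all genes were positive past it), and it ran from 5.77 to 8.68 in KO and from 6.36 to 8.14 in WT tumours. The dendritic cell mean had an r of 0.96 to the T cell mean, and the same 4 tumours lay above its widest gap, so both values include the tumours set apart. Between KO and WT tumours 0 of 8 class II genes passed limma, with or without adjustment (median difference -0.24).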
